A study of Oryza sativa with 4 samples.

Results

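Protein phosphatases 2C (PP2Cs) outside clade A were followed in rice leaves over 3 d without water. The members were taken from the gene annotation by its words. Every locus described as a protein phosphatase 2C or PP2C was kept, except 9 loci taken as clade A. For each locus 1 transcript was used, the matching one with the most reads over the 4 libraries. Of 54 loci found in this way, 53 had at least 10 reads in total and are the members described here, out of 32572 loci with that many reads. The locus left out, Os02t0633700, had 6 reads over the 4 libraries, and the member nearest to the minimum, Os02t0633900, had 10. Loci are written as in the gene table without the transcript suffix, so that Os06t0698300 lies on chromosome 6. The words missed 3 loci described as phosphatase type 2C. The members were not checked against protein sequences, so whether a further clade A locus remains among them is not known.

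The data are RNA-seq read counts of wild type rice (Oryza sativa, ecotype labelled Illmi and written as cultivar Ilmi in the study's methods), grown in soil pots in a greenhouse for 5 weeks. The 4 libraries were made from total RNA of leaves: a well-watered control (C) and plants 1, 2 and 3 d after water was withheld. Each library held leaves pooled from several plants, and there was 1 library per condition, so that no difference below has a replicate check and none was tested across samples. The control was sampled first, so drought and the day of sampling cannot be told apart. In whole leaves, fewer cells of a type and less RNA per cell cannot be told apart either.

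PP2Cs are serine/threonine phosphatases that need manganese or magnesium ions and act as single polypeptides. In Arabidopsis, clade A holds the abscisic acid co-receptors that keep SnRK protein kinases inactive until the hormone is bound, while the other clades have other tasks: clade B enzymes dephosphorylate MAP kinases, clade C includes POLTERGEIST, which acts in stem cell maintenance, and clade D enzymes act on plasma membrane H+-ATPases and are inhibited by SAUR proteins. The annotation does not place the rice loci in these clades, and none is assigned to one here.

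Summed over all 44553 gene sequences, the counts of a library came to 52626188 to 60322263, which are called its mapped reads here. Transcripts of 1 locus can share reads, so a read may be counted more than once in these sums. Values are given as the reads of a locus per 1000000 mapped reads of the library (CPM), and a difference as the log2 ratio of CPM to the control. A locus is said to have risen at a log2 ratio of at least 1 and to have fallen at a ratio of at most -1. Ratios are followed by their exact 95% counting interval, which covers the counting of reads only and not the spread between plants. The drought marker Dip1 had 49.9 CPM in C, 91.4 at 1 d, 4236 at 2 d and 4176 at 3 d. RbcS1, a Rubisco small subunit gene, had 1450, 1278, 171 and 13.5 CPM in the same order. The 11 light harvesting genes summed to 10993, 11282, 1675 and 400.4 CPM. Of 4 root genes 1 or 2 had reads, with sums of 0.546, 0.513, 0.282 and 0.035 CPM. The root marker RCc3, among these 4, had no reads in any library. Of 29 pollen allergen genes 16 to 20 had reads, with sums of 69.1 and 72.8 CPM in C and at 1 d and of 153 and 142 CPM at 2 d and 3 d. Of 49 glutelin and prolamin genes 15 to 22 had reads, with sums between 54.9 and 70.4 CPM, and the part of such cells in the results was not tested. Over all loci the median log2 ratio was 0.11 above that of the members at 1 d. It was 0.44 below that of the members at 2 d and 0.31 below it at 3 d. edgeR's TMM factors would raise every log2 ratio by 0.33 at 2 d and 0.72 at 3 d, and DESeq2's size factors by 0.36 and 0.86, and the members whose call against the control turns on this are named below.

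After 1 d without water the members differed little from the control. None of the 53 rose, against 5.71% of all loci that rose, and 1 fell, against 4.57% of all loci that fell. That member, Os02t0607500 (annotated as PP2C 22), had 2 reads at 1 d and 6 in C, and its interval of -4.82 to 1.01 included no change. This call was lost with at least 100 reads required (0 members, against 3.01% of all loci) or with an interval wholly past the threshold (0 members, against 1.41%), and with the reads of a locus summed 2 members fell, against 4.53% of all loci. Counted by an interval that excludes no change, 8 members were above the control and 21 below it, against 25.3% and 22.1% of all loci. By the threshold, the shares of all loci differed with length. Up to 4017 bases, the median length of the members, 7.04% rose and 5.81% fell. Of longer loci, 2.50% rose and 1.56% fell. The members' median log2 ratio was -0.07, against 0.03 for all loci. Of the 53 members, 32 lay below 0, and the share of all loci below 0 was not computed. The highest ratio was that of Os06t0698300, at 0.85 (0.68 to 1.03), followed among members with a mean of at least 100 reads by Os04t0167875 at 0.79 and Os02t0224100 at 0.62. The lowest among those were Os05t0358500 at -0.84 (-1.06 to -0.62), Os03t0761100 at -0.81 (-0.92 to -0.71) and Os03t0821300 at -0.78 (-0.99 to -0.58). These 3 loci were all higher than the control 2 d later, with log2 ratios of 2.19, 2.95 and 1.60 at 3 d.

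**Figure D1:**
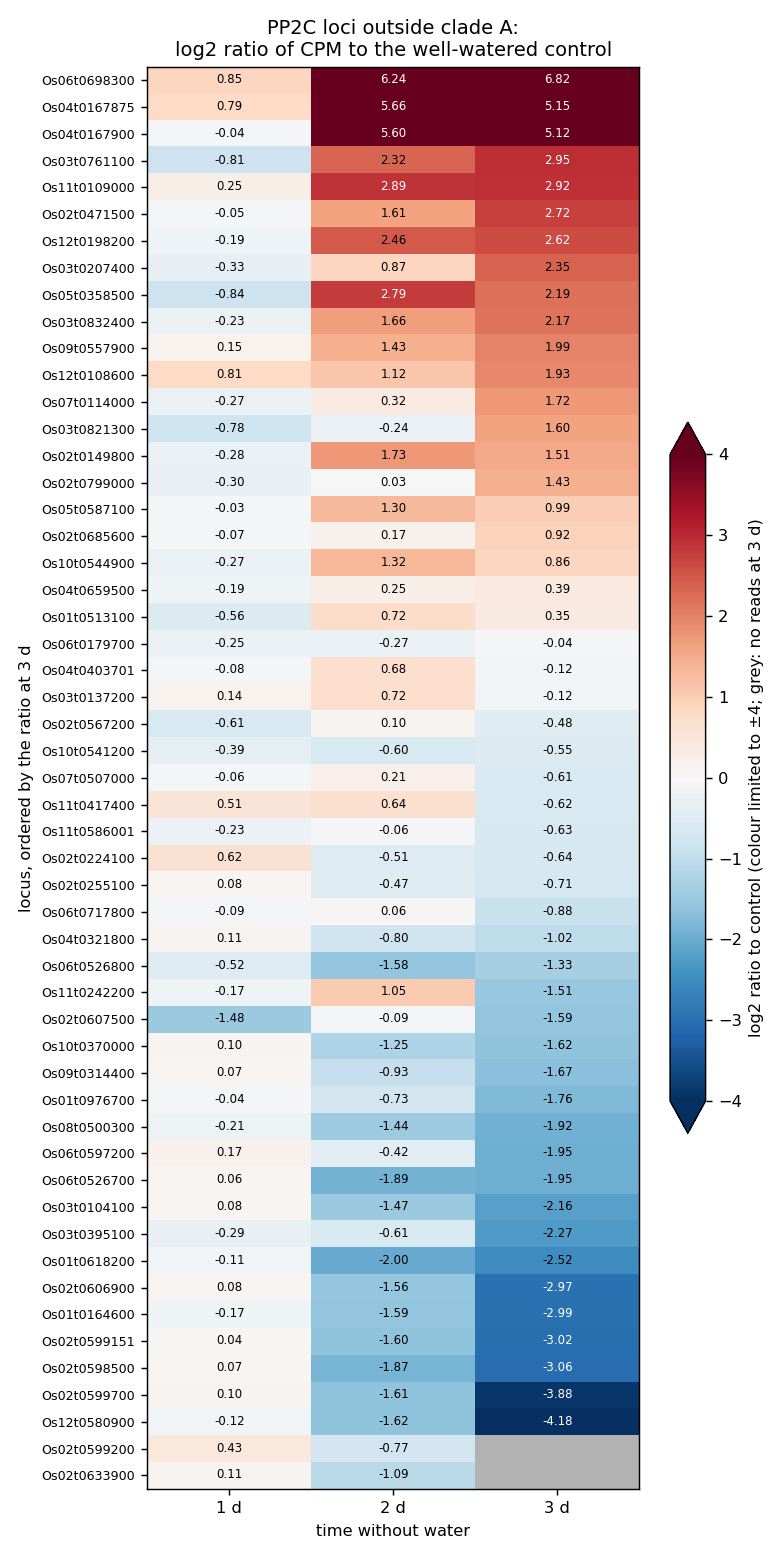
Log2 ratio of CPM to the well-watered control for each of the 53 members (rows, ordered by the value at 3 d) at 1, 2 and 3 d without water (columns), with the ratio printed in each cell and the colour limited at 4 and -4. The 1 d column is pale except for Os02t0607500 at -1.48, the upper rows are red and the lower rows blue at 2 d and 3 d, and 2 members without reads at 3 d are grey.

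At 2 d the members had spread in both directions. Of the 53, 15 rose, or 28.3%, against 19.9% of all loci, and 13 fell, or 24.5%, against 34.9% of all loci. The median log2 ratio was 0.03 for the members and their quartiles were -0.93 and 1.12. The counting interval lay wholly past the threshold for 13 of the risers and 12 of the fallers, against 14.5% and 25.7% of all loci. It excluded no change for 23 members above the control and 22 below it, against 30.7% and 50.8%. From 1 d to 2 d, 17 members rose and 15 fell, against 20.3% and 35.9% of all loci. That step gave 19 up and 10 down with TMM factors, against 25.6% and 28.7%, and 19 up and 9 down with DESeq2 factors, against 26.3% and 27.9%. With TMM factors or DESeq2 size factors the counts at 2 d were 19 up and 11 down, against 24.9% and 27.7% of all loci with TMM factors and 25.6% and 27% with the DESeq2 factors. With either set Os01t0513100, Os03t0137200, Os03t0207400 and Os04t0403701 also passed the threshold upwards, and Os02t0633900 and Os10t0370000 no longer passed it downwards.

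At 3 d, 51 members had reads in both libraries. Of these, 16 rose, or 31.4%, against 20.8% of all loci, and 19 fell, or 37.3%, against 47.4% of all loci. The median log2 ratio was -0.55, and the ratios ran from -4.18 to 6.82. The division by mapped reads weighed on these counts: with TMM factors they were 21 up and 13 down, against 30.5% and 34.8% of all loci, and with DESeq2 size factors 21 up and 12 down, against 32.7% and 32.6%. The counting interval was wholly past the threshold for 16 members above the control and 16 below it, against 16.3% and 39.2%. All 16 risers remained past the threshold with both sets of factors, and 12 of the 19 fallers did. The other 7, Os04t0321800, Os06t0526800, Os11t0242200, Os02t0607500, Os10t0370000, Os09t0314400 and Os01t0976700, had log2 ratios of -1.02 to -1.76 and fell short of it with the DESeq2 factors. Os01t0513100, Os02t0685600, Os04t0659500, Os05t0587100 and Os10t0544900 passed it upwards with either set of factors.

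The widest change was that of Os06t0698300, a PP2C family protein on chromosome 6. It had 7.81 CPM in C (443 reads), 14.1 at 1 d, 589 at 2 d and 883 at 3 d (50244 reads). Against the control it stood at 6.24 on the log2 scale at 2 d (6.10 to 6.38) and at 6.82 at 3 d (6.69 to 6.96), which is 113-fold. It lay below the median member in C, was the most abundant member at 2 d and 3 d, and was the member nearest to the threshold at 1 d.

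Next came a pair of neighbouring loci on chromosome 4 with no locus between them in the table. Os04t0167875 had 25 reads in C, 40 at 1 d, 1348 at 2 d and 890 at 3 d, and its log2 ratio was 5.66 at 2 d and 5.15 at 3 d (4.58 to 5.78). Os04t0167900 had 10, 9, 515 and 348 reads in the same order, and log2 ratios of 5.60 and 5.12 (4.22 to 6.19). Both were highest at 2 d. Their gene sequences are short, 261 and 645 bases, and both are annotated only as holding a PP2C-like domain. Whether they are parts of 1 gene, and whether they belong to clade A, was not tested.

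Further members also rose at both 2 d and 3 d. Os03t0761100, annotated as PP2C-like, had 39.9 CPM in C, 22.7 at 1 d, 199 at 2 d and 307 at 3 d, where its log2 ratio was 2.95 (2.88 to 3.01). Os12t0198200 had 5.82, 5.11, 32.1 and 35.7 CPM and a log2 ratio of 2.62 (2.45 to 2.79) at 3 d. Os02t0149800 had 93.3, 77.0, 308 and 266 CPM and a log2 ratio of 1.51 (1.47 to 1.56) at 3 d. For each of these 3 loci the 1 d library was the lowest of the 4, and the 2 d and 3 d libraries were both well above it. Os05t0358500 had the same course with a peak at 2 d: 8.99 CPM in C, 5.02 at 1 d, 62.0 at 2 d and 41.1 at 3 d, with log2 ratios of 2.79 (2.65 to 2.92) at 2 d and 2.19 (2.05 to 2.33) at 3 d. Os03t0832400 reached 21.6 CPM at 3 d against 4.79 in C, a log2 ratio of 2.17.

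A ratio below 0 at 1 d was common among the members that later rose. Of the 19 members that rose at 2 d or 3 d, 14 lay below 0 at 1 d, with a median of -0.19 over the 19. Of all 53 members, 32 lay below 0 at 1 d, and this share was not computed over all loci. The interval of some of the 14 included no change, as for Os02t0471500 at -0.05 (-0.20 to 0.09). That of others did not, as for Os03t0761100 at -0.81 (-0.92 to -0.71). Of all loci that rose at 2 d or 3 d and had a ratio at 1 d, 40.2% lay below 0 at 1 d, and their median was 0.11. Of the 9 clade A loci, all of which rose by 2 d or 3 d, 3 lay below 0 at 1 d, and their median was 0.30. These comparisons use the same control and have no test.

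Os11t0109000 and Os12t0108600, on chromosomes 11 and 12, rose from few reads. Os11t0109000 had 10 reads in C, 11 at 1 d, 79 at 2 d and 76 at 3 d, where its log2 ratio was 2.92 (1.96 to 4.04). Os12t0108600 had 16, 26, 37 and 61 reads, a log2 ratio of 1.93 (1.11 to 2.82) at 3 d. The starts of chromosomes 11 and 12 are a known duplicated region of the rice genome, so reads of such loci may have been split between copies, which was not tested.

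**Figure D2:**
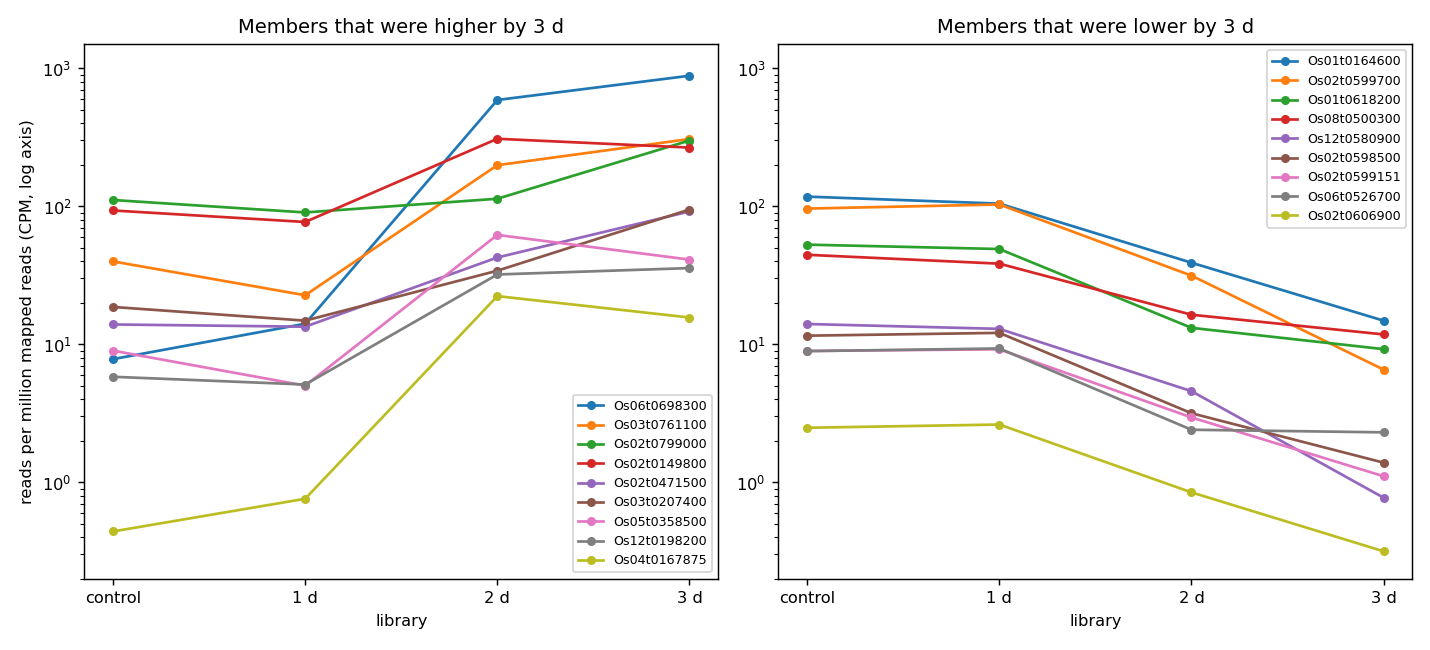
CPM (log axis) in the 4 libraries for 9 members that were higher at 3 d (left) and 9 that were lower (right), 1 line per locus and 1 library per point. Os06t0698300 passes the other lines between 1 d and 2 d and reaches 883 CPM, while Os12t0580900 drops below 1 CPM by 3 d.

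From 2 d to 3 d, 5 members rose and 12 fell, or 9.80% and 23.5% of 51, against 11.2% and 30.9% of all loci. This balance turned on the scaling: with TMM factors 8 rose and 9 fell, against 17.5% and 21.1% of all loci, and with DESeq2 factors 11 rose and 6 fell, against 19.7% and 19%. The 5 that rose by CPM also rose with both sets of factors and were Os03t0821300, Os03t0207400, Os07t0114000, Os02t0799000 and Os02t0471500. Os03t0821300, annotated as PP2C 35, had 9.77 CPM in C, 5.68 at 1 d, 8.27 at 2 d and 29.6 at 3 d, so that it was above the control at 3 d alone (log2 ratio 1.60, 1.46 to 1.74). Os03t0207400 had 18.7, 14.8, 34.1 and 94.8 CPM, with log2 ratios of 0.87 at 2 d and 2.35 (2.25 to 2.44) at 3 d, and Os07t0114000 had 8.43, 6.97, 10.5 and 27.8 CPM, with ratios of 0.32 and 1.72. Os02t0471500 was already above the threshold at 2 d, at 1.61, and had 91.7 CPM at 3 d against 13.9 in C, a ratio of 2.72 (2.61 to 2.83). With TMM or DESeq2 factors Os03t0207400 counts as risen at 2 d as well.

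Set side by side, the calls at 2 d and 3 d mostly had the same sign. Of the 51 members with both ratios, 12 rose on both days and 12 fell on both days, and 14 were within the threshold on both. With TMM or DESeq2 factors 16 rose and 10 fell on both days, against 21.5% and 22.7% of all loci with TMM factors and 22.5% and 21.5% with DESeq2 factors. By CPM a further 4 rose at 3 d alone and 6 fell at 3 d alone. Os05t0587100 and Os10t0544900 rose at 2 d alone, with log2 ratios of 1.30 and 1.32 on that day. At 3 d their ratios were 0.99 and 0.86, and both pass the threshold at 3 d with the TMM or DESeq2 factors. By CPM, 15.7% of all loci rose on both days, 30.8% fell on both and 24.9% were within the threshold on both. Of all loci, 4.80% were within it at 2 d and rose at 3 d, and 16.0% were within it at 2 d and fell at 3 d. A further 3.98% rose at 2 d and were within it at 3 d. Both ratios share the control library, so they do not count as separate evidence.

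Os11t0242200 was the 1 member past the threshold in opposite directions. Of all loci, 0.48% rose at 2 d and fell at 3 d, and 0.37% fell at 2 d and rose at 3 d. It had 34 reads in C, 28 at 1 d, 75 at 2 d and 12 at 3 d. Its log2 ratio was 1.05 (0.45 to 1.68) at 2 d and -1.51 (-2.59 to -0.52) at 3 d. The counts are low, and with TMM or DESeq2 factors the value at 3 d was -0.79 or -0.65 and no longer a fall.

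The annotation describes 3 members as similar to a DNA-binding protein phosphatase 2C, a kind of PP2C known from tobacco and Arabidopsis that also binds DNA, and these 3 differed. Os02t0799000 had 111 CPM in C, 90.2 at 1 d, 113 at 2 d and 299.6 at 3 d, where its log2 ratio was 1.43 (1.39 to 1.47). Os06t0179700 had 33.4, 28.2, 27.8 and 32.6 CPM, a ratio of -0.04 (-0.13 to 0.06) at 3 d. Os06t0597200 had 31.5, 35.4, 23.6 and 8.15 CPM, a ratio of -1.95 (-2.10 to -1.80) at 3 d. The counting intervals of the 3 ratios at 3 d do not overlap, and at 2 d none of the 3 was past the threshold. With the DESeq2 factors the first rose, the second stayed between the thresholds at 0.83 and the last fell at -1.09.

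Other members carry names from the annotation. Os09t0557900 is described as similar to PP2C gamma, in mammals a nuclear phosphatase that acts in pre-mRNA splicing. It had 5.78 CPM in C, 6.40 at 1 d, 15.6 at 2 d and 23.0 at 3 d, where its log2 ratio was 1.99 (1.82 to 2.17). Its shorter second transcript had no reads in C and at 1 d, 12 at 2 d and 67 at 3 d. Os02t0255100, described as mitochondrial and linked to pollen germination, had 10.6, 11.2, 7.64 and 6.48 CPM, a ratio of -0.71 (-0.90 to -0.52) at 3 d that becomes 0.01 with TMM factors. Os01t0513100 is described as similar to ABI2, the name of a clade A enzyme in Arabidopsis, yet it is not among the 9 clade A loci left out here. It had 12.2, 8.27, 20.1 and 15.5 CPM and log2 ratios of -0.56, 0.72 and 0.35, past the threshold only with TMM or DESeq2 factors (1.07 and 1.21 at 3 d).

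Os06t0526700 and Os06t0526800, neighbours on chromosome 6 annotated as PP2C 55 and PP2C 56, were both lower at 2 d and 3 d. Os06t0526700 had 8.92 CPM in C, 9.33 at 1 d, 2.40 at 2 d and 2.30 at 3 d, where its log2 ratio was -1.95 (-2.24 to -1.67). Os06t0526800 had 37.8, 26.3, 12.7 and 15.02 CPM, with ratios of -1.58 (-1.70 to -1.46) at 2 d and -1.33 (-1.45 to -1.22) at 3 d, the last being -0.61 with TMM factors. Os11t0586001 (PP2C 76) had 590, 467, 603 and 383 reads and stayed between the thresholds. Os02t0633900, similar to a T-cell activation PP2C of mammals, had 4, 4, 2 and 0 reads, too few for a direction.

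Among the fallers, Os12t0580900, annotated as PP2C-like, was lowest. It had 14.0 CPM in C (796 reads), 12.9 at 1 d, 4.58 at 2 d and 0.773 at 3 d (44 reads), where its log2 ratio was -4.18 (-4.65 to -3.74), or 18.1-fold lower than the control. In CPM, the largest loss was that of Os01t0164600, the most abundant member in C: it had 118 CPM in C, 105 at 1 d, 39.0 at 2 d and 14.8 at 3 d, a ratio of -2.99 (-3.09 to -2.88). Os01t0618200 had 52.7, 49.0, 13.2 and 9.23 CPM, 4.01-fold lower at 2 d, the lowest ratio of any member on that day, and a log2 ratio of -2.52 at 3 d. Os03t0395100 fell late, with 6.70, 5.47, 4.39 and 1.39 CPM and ratios of -0.61 at 2 d and -2.27 (-2.64 to -1.92) at 3 d. Os03t0104100 and Os08t0500300 had log2 ratios of -2.16 and -1.92 at 3 d. Of the 19 members that fell at 3 d, 9 lay below 0 at 1 d, 5 of them with an interval wholly below 0. The median of the 19 at 1 d was 0.04, against 0.03 for all loci, fallen or not. The values at 1 d of all loci that fell at 3 d were not computed.

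Of the 12 members that fell at 3 d under every scaling, 4 came from a short stretch of chromosome 2. Between Os02t0598500 and Os02t0607500 the table lists 70 loci, 6 of them members. Chromosome 2 as a whole holds 14 of the 53 members. Of all loci, 47.4% fell at 3 d by CPM and 32.6% with DESeq2 factors. The calls of the other loci in the stretch were not counted, so a tie of the falls to the members is not shown. Os02t0599700, with an annotated manganese/magnesium aspartate binding site, had 96.2 CPM in C, 103 at 1 d, 31.4 at 2 d and 6.55 at 3 d, where its log2 ratio was -3.88 (-4.03 to -3.72), 14.7-fold lower than the control. Os02t0598500 had 11.5, 12.1, 3.17 and 1.39 CPM (-3.06 at 3 d), and Os02t0599151, annotated as PP2C 17, had 8.96, 9.20, 2.95 and 1.11 CPM (-3.02). Os02t0606900 had 141, 138, 51 and 18 reads (-2.97, -3.77 to -2.26). These 4 had nearly the same course, flat at 1 d, between -1.87 and -1.56 at 2 d, and near or below -3 at 3 d. The other members of the stretch were Os02t0607500, with 6, 2, 6 and 2 reads, and Os02t0599200, with 8, 10, 5 and 0 reads, at least 2.68-fold lower at 3 d when the 0 is set at 3 reads. Reads shared between similar neighbours could make such courses alike, and this was not tested.

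By CPM, 14 members stayed between the thresholds on all 3 days. Of all loci, 24.9% stayed between them at 2 d and 3 d, and the share on all 3 days was not computed. With TMM or DESeq2 factors 9 of the 14 members still did, and 5 passed the threshold upwards. These were Os04t0403701 and Os03t0137200 at 2 d, Os02t0685600 and Os04t0659500 at 3 d, and Os01t0513100 on both days. Os04t0403701, among the 3 most abundant in C, had 115 CPM in C, 109 at 1 d, 184 at 2 d and 106 at 3 d. The rest ran from Os02t0685600, with 0.92 at 3 d, to Os06t0717800, with -0.88. Os07t0507000, among the 9, had 74.0, 71.2, 85.7 and 48.7 CPM, and Os04t0659500 had 41.5, 36.5, 49.2 and 54.2 CPM. Their reads in C ran from 107 to 6517 per locus, and 2 of the 14 stayed within 0.5 of the control on all 3 days. For 10 members with a ratio below 0 at 3 d the sign turned with TMM or DESeq2 factors, and all of those are in this group of 14. Os02t0224100 was higher at 1 d, with 2106 reads against 1479 in C (log2 ratio 0.62), and had 1106 reads at 2 d and 951 at 3 d.

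Summed over the members, reads of the family took 1472 CPM in C, 1365 at 1 d, 2452 at 2 d and 2807 at 3 d. Os06t0698300 alone made up 0.530% of this sum in C, 1.03% at 1 d, 24.0% at 2 d and 31.5% at 3 d. Without it the sum was 1465, 1351, 1863 and 1924 CPM. The 5 most abundant members of each library held 36.2%, 36.8%, 57.2% and 66.3% of the sum, while the median member stood at 12.2, 12.9, 15.6 and 15.02 CPM. The reads thus lay in fewer members at 2 d and 3 d than in C. The 9 clade A loci summed to 199, 237, 1851 and 1866 CPM.

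**Figure D3:**
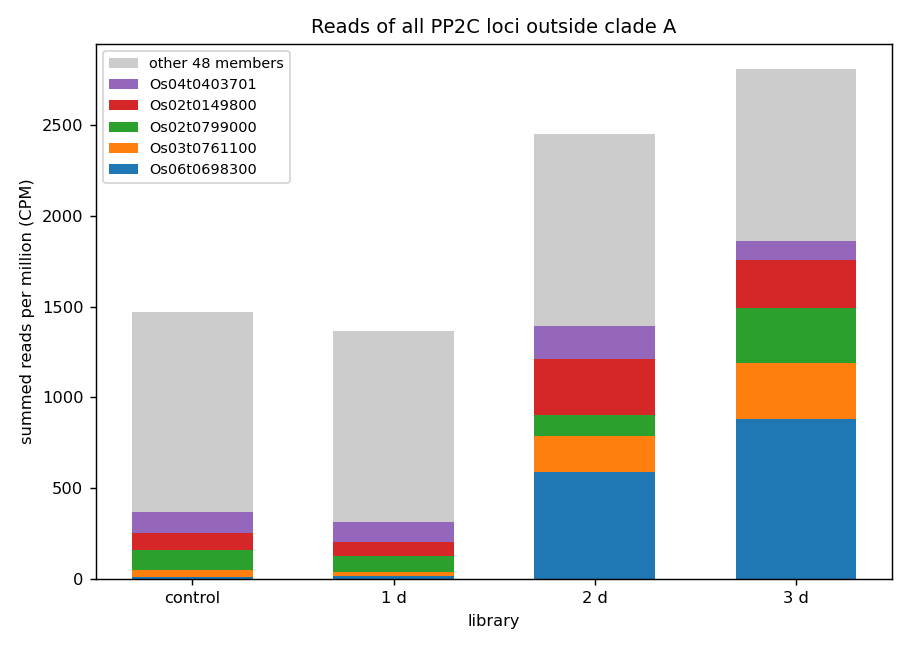
Summed CPM of the 53 members in each library, with 5 loci in colour and the other 48 in grey. The bars reach 1472, 1365, 2452 and 2807 CPM, and the blue segment, Os06t0698300, is barely visible in the control and 1 d bars.

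Levels of different genes were compared per kilobase of gene sequence. Where the sequences mapped to include introns, the levels are lowered to a different extent for each gene. The order between genes is therefore rough and is given as description only. In C the order was Os01t0164600 (38.1 CPM per kilobase), Os02t0149800 (29.8), Os04t0403701 (29.3), Os02t0799000 (27.7) and Os07t0507000 (17.5). At 3 d it was Os06t0698300 (315), Os03t0761100 (117), Os02t0149800 (85.0), Os02t0799000 (74.7) and Os04t0167875 (59.9, on a sequence of 261 bases). Os02t0149800 and Os02t0799000 stood in both orders. By library, 11 members were highest in C, 14 at 1 d, 14 at 2 d and 14 at 3 d. These are 20.8%, 26.4%, 26.4% and 26.4% of the members, against 25.8%, 33.4%, 19.2% and 21.6% of all loci. The lowest library was that of 3 d for 28 members and that of 1 d for 17, and the shares of all loci were not computed. These counts are by CPM alone.

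Where a locus had several transcripts with enough reads, their ratios at 3 d were close. For 13 loci with at least 2 transcripts of 100 reads or more, the log2 ratios at 3 d of the transcripts of 1 locus lay within 0.39 of each other, with a median range of 0.08. The widest was Os03t0761100, whose 3 transcripts had ratios of 2.95, 3.28 and 3.33. Transcripts of 1 locus can share sequence and reads, so this is not independent evidence, and the range was computed at 3 d alone. For Os03t0821300 the transcript used here had a log2 ratio of -0.78 at 1 d, against -1.14 for another with more reads, whose description does not name a PP2C.

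The members differed from clade A in the direction of their changes. Beside the members, with risers and fallers on both days, all 9 clade A loci rose at 2 d, 8 of them rose at 3 d and none fell. The median log2 ratio was 0.03 at 2 d and -0.55 at 3 d for the members, against 3.16 and 3.24 for clade A. Other serine/threonine phosphatases (PP1, PP2A and related) had 3 up and 6 down of 33 at 2 d and 4 up and 6 down at 3 d, with medians of 0.23 and -0.23. Dual specificity and tyrosine phosphatases had 3 up and 9 down of 29 at 2 d and 4 up and 13 down of 28 at 3 d. Of these phosphatase groups the share of risers at 3 d was 31.4% in the members, 88.9% in clade A, 12.1% in the other serine/threonine phosphatases and 14.3% in the dual specificity and tyrosine phosphatases. Of all loci, 19.9% rose and 34.9% fell at 2 d, and 20.8% rose and 47.4% fell at 3 d. The counts are by CPM, the group sizes differ, the groups share the control, and no test of the differences was made.

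**Figure D4:**
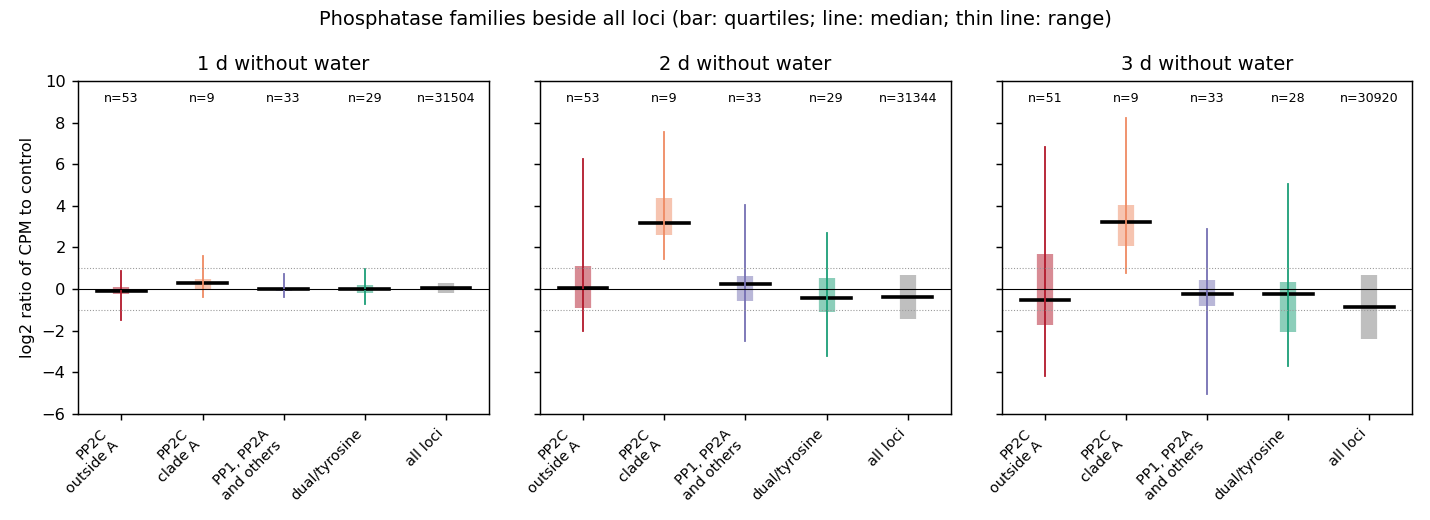
Log2 ratio of CPM to the control at 1, 2 and 3 d (panels) for the members, the clade A loci, the other serine/threonine phosphatases, the dual specificity and tyrosine phosphatases and all loci, with the median as a black line, the quartiles as a bar and the range as a thin line (no range for all loci). The members spread to both sides of 0 at 2 d and 3 d, while clade A lies above 0 with medians of 3.16 and 3.24.

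Genes whose products are partners of these phosphatases in Arabidopsis included risers and fallers, as all loci did. Of all loci, 19.9% rose and 34.9% fell at 2 d, and 20.8% rose and 47.4% fell at 3 d. Plasma membrane H+-ATPases, the proton pumps on which clade D acts, had 2 up and 7 down of 12 at 2 d and 4 up and 7 down at 3 d. SAUR genes, whose products inhibit clade D, had 4 up and 6 down of 18 at 2 d and 3 up and 8 down of 16 at 3 d. MAP kinases, substrates of clade B, had 7 up and 5 down of 25 at 2 d and 7 up and 11 down at 3 d. These counts are by CPM alone. Which member acts on which partner in rice is not known from these data.

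Members with short and long gene sequences differed in direction at 3 d. Of the members up to the median length of 4017 bases, 14 of 25 rose and 6 fell, with a median log2 ratio of 1.51. Of the longer members, 2 of 26 rose and 13 fell, with a median of -0.95. Among all loci split at the same length, 22.5% of the shorter rose and 48.0% fell, with a median of -0.88, and 17.02% of the longer rose and 46.0% fell, with a median of -0.81. These counts are by CPM. The 2 longer members that rose were Os02t0471500 and Os12t0198200. The gene ontology terms divided the members less: 6 of 25 annotated with phosphatase activity rose at 3 d and 11 fell, and 9 of 24 annotated with catalytic activity alone rose and 8 fell. By CPM, 20.8% of all loci rose at 3 d and 47.4% fell. Another scaling moves all these medians alike, whereas the counts at the threshold can change with it. The division by length was noticed in these data and was not tested.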

How the data were processed

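Leaf RNA of 4 conditions was sequenced from strand-specific libraries, 1 library each. The authors trimmed the reads, removed duplicates and mapped them to RAP-DB gene sequences (IRGSP-1.0 per the submitters' processing notes), and deposited a read count for each gene sequence and library. Whether strand was used in counting is not given in the sources used here. The deposited normalized values, the authors' log2 ratios to the control and the noncoding RNA table were not used.

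Counts were divided by the library's summed counts over all gene sequences (CPM) and compared as log2 ratios where both libraries had reads. The threshold was 1 or -1. Counting intervals were exact (Clopper-Pearson, 95%), and 0 reads was set at 3 reads for folds. Scaling factors alone came from edgeR 4.0.16 and DESeq2 1.42.0 (R 4.3.3), and the rest was done in Python 3.11.15 with pandas 2.3.3 and scipy 1.17.1. The calculation was tested on simulated counts.

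The members and lists were chosen with earlier results of these data known. The naming rule took, among members with a mean of at least 100 reads, the 5 highest and 5 lowest ratios on each day. It added the 5 highest CPM values in the control, members past the threshold in opposite directions, and members with a name in the annotation. Other members named were chosen after their values were seen. Alternatives were other scalings, read minimums, summed transcripts and interval-based calls. Grouping by protein similarity was planned and was not done, since no protein sequences were used here.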

Additional observations from a re-analysis of the deposited data

Results flagged for a closer look

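Os11t0242200 was past the threshold in opposite directions on consecutive days, and 0.48% of all loci likewise rose at 2 d and fell at 3 d. Its log2 ratio to the control was 1.05 at 2 d (75 reads, against 34 in the control) and -1.51 at 3 d (12 reads, against the same 34). The difference between the days was not tested, since there was 1 library per condition.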

How the results depend on the processing

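No paired analysis was possible because there was 1 library per condition. Calling by a counting interval that excludes no change gave 8 members up and 21 down at 1 d, 23 up and 22 down at 2 d, against 0, 1, 15 and 13 by the threshold. The 1 member down at 1 d was lost with at least 100 reads or with an interval wholly past the threshold (0 in each case), and it became 2 with reads summed over the locus or with the top transcript whatever its annotation. The last was chosen after seeing the data, as was leaving out 3 members under 1000 bases, which changed no count by over 1.5 times. At 3 d the members down numbered 12 with DESeq2 factors, against 19. The members' median at 3 d was 0.42 above that of all loci with at least 100 reads, against 0.31. No called member changed direction under TMM or DESeq2 factors. Below about 10 reads in a library, as in Os02t0607500, Os02t0599200 and Os02t0633900, the counts limit any statement.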
